A study of Mus musculus with 12 samples.

Results

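Plasma membrane amino acid transporters were followed across normal mouse liver and mTOR-dependent liver tumors. The set held 10 genes of the 17007 listed: the cystine/glutamate exchanger Slc7a11, its heavy chain Slc3a2, and Slc7a5, Slc7a1, Slc7a2, Slc7a3, Slc1a4, Slc1a5, Slc38a2 and Slc6a9. The members were picked by name for their function, with earlier results of these libraries known. Slc7a11 itself was selected by the study from the libraries described here. It was among genes higher in tumors than in normal liver and lowered by MLN0128 but not by everolimus. An earlier microarray and human tumor data then narrowed that list. Its values are therefore a description with no test, and calls were counted over the other 9 members. In the values below, Slc7a11 was lower than vehicle under everolimus too, unlike the rule of that selection.

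RNA from 12 mice was sequenced, 3 per group. Normal liver came from wild-type C57BL/6 mice that carried no tumor plasmids. The tumors were c-MYC/MCL1/Rictor KO Tsc2 KO: Rictor fl/fl Tsc2 fl/fl mice received c-MYC, MCL1 and Cre plasmids by hydrodynamic tail vein injection, which drives plasmid into a fraction of hepatocytes. All 9 tumor mice thus share both oncogenes and both deletions, and the normal livers lack all of them as well as the injection, so these differences cannot be told apart. Rictor is the defining subunit of mTORC2 and Tsc2 is a brake on mTORC1, so that mTORC1 is unrestrained in cells that lack Tsc2. By the labels, tumor mice were given vehicle, MLN0128 at 1 mg/kg per day or everolimus at 1 mg/kg per day by gavage 6 days a week for 3 weeks, starting 6 days after injection, and were sacrificed at 3.7 weeks. Another description of these tumors gives a treatment of days rather than weeks, so the length of exposure to the drugs is uncertain. MLN0128 is an ATP-competitive inhibitor of mTOR kinase, and everolimus is a rapamycin analog that inhibits mTORC1 incompletely. Ages and sexes were not given in the labels used here. In whole tissue, fewer cells of a type and less RNA per cell cannot be told apart.

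Levels are the authors' FPKM, which are per kilobase of a gene's merged annotated exons. That length also counts exons that are not expressed, so comparisons between genes are approximate. Reads recovered from them numbered 17164217 to 25180704 per library. All 7 hepatocyte markers were above 0 in every library, and their summed FPKM ran from 82451 to 102218 in normal liver. In tumors it ran from 3815 to 5945 under vehicle, 1801 to 4038 under MLN0128 and 3065 to 7890 under everolimus. Rictor was 1.65 to 2.57 FPKM in normal liver and 1.05 to 2.21 in tumors, and Tsc2 was 4.50 to 5.32 and 2.01 to 3.96; values over the whole gene do not show loss of the floxed exons. MLN0128 replicates 1 and 2 stood apart: Xist was at 191 and 155 FPKM in them and at most 0.0699 in the other 10 libraries, and 4 Y-linked genes were at 0 in both but expressed in the other 10. This is the pattern of female tissue, and the other 10 libraries show that of male tissue. In these libraries sex and MLN0128 cannot be told apart. Each MLN0128 result is given with and without these libraries where it changes.

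Amino acid transporters of the plasma membrane work in families. SLC7 light chains such as xCT (Slc7a11) and LAT1 (Slc7a5) reach the membrane only as a disulfide-linked pair with the heavy chain 4F2hc (Slc3a2), whereas the cationic transporters CAT1, CAT2 and CAT3 (Slc7a1, Slc7a2, Slc7a3) act without it. xCT brings in cystine, the precursor of glutathione, in exchange for glutamate. Hepatocytes normally hold little xCT or LAT1 and take up arginine and lysine mainly through CAT2, and many proliferating and MYC-driven cells carry LAT1 and ASCT2. Several of these genes are known targets of ATF4, the transcription factor that rises when amino acids are short and whose synthesis mTORC1 also promotes.

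Slc7a11 (chr3:49892526-50443614, minus strand, GRCm38) was nearly silent in normal liver and present only at low levels in treated tumors. Its FPKM was 0.0266, 0 and 0 in the 3 normal livers, 6.94, 11.4 and 13.3 under vehicle, 0.106, 0.0404 and 0.198 under MLN0128, and 0.167, 0.534 and 1.06 under everolimus. Every vehicle tumor lay above every other library, everolimus and MLN0128 overlapped, and every MLN0128 tumor lay above every normal liver. The recovered reads behind these values were 4, 0 and 0 in normal liver, 2070, 3346 and 4314 under vehicle, 42, 12 and 66 under MLN0128, and 44, 225 and 368 under everolimus. The high counts are approximate, because FPKM were rounded to 3 significant digits. Pooled over libraries and put on the scale of the authors' FPKM, vehicle tumors held 1192 times the normal liver level. The 95% exact counting interval was 465 to 4376 and covers counting error only. That scale is not plain depth: it includes the factors beside total reads given below, which were lower in normal liver than in tumors. Mean FPKM fell to 1.09% of the vehicle mean under MLN0128 and to 5.57% under everolimus, or to 0.694% without MLN0128 replicate 3 and 3.32% without everolimus replicate 3. On the log2(FPKM + 1) scale, which shrinks differences of low values, Slc7a11 differed by 3.47 ± 0.22 (SE) between vehicle tumors and normal liver, by -3.33 ± 0.22 between MLN0128 and vehicle, by -2.86 ± 0.22 between everolimus and vehicle, and by -0.47 ± 0.22 between MLN0128 and everolimus. Without MLN0128 replicates 1 and 2, the difference between MLN0128 and vehicle was -3.23.

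**Figure D1:**
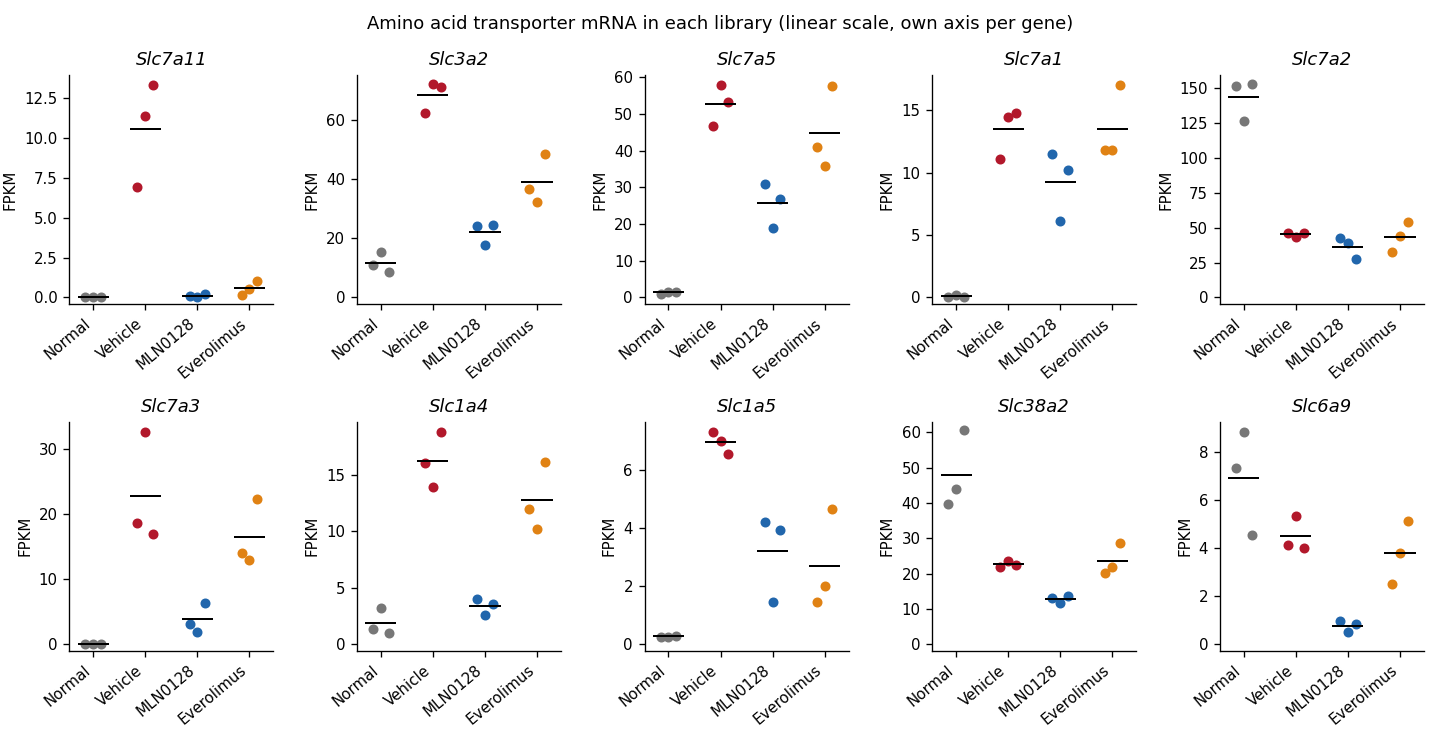
FPKM of each amino acid transporter (y axis, linear, own scale per gene) in the 3 libraries of normal liver, vehicle, MLN0128 and everolimus; points are libraries and bars are group means. Slc7a11 reached 6.94 to 13.3 FPKM under vehicle and at most 1.06 elsewhere, whereas Slc7a2 and Slc38a2 were highest in normal liver.

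The promoter of Slc7a11 is shown with those of its heavy chain Slc3a2 and of Slc1a4, which also fell under MLN0128, because ATF4 binds amino acid response elements near the starts of target genes. The sequences are RefSeq's (GRCm38.p6), minus strand genes read 5′ to 3′, from 250 bases before the transcription start through the first 10 transcribed bases. Capitals mark any match to the amino acid response element core TGATGNAA, the E-box CACGTG or the antioxidant response element core TGACNNNGC, searched on both strands.
Slc7a11 chr3:50443604-50443863: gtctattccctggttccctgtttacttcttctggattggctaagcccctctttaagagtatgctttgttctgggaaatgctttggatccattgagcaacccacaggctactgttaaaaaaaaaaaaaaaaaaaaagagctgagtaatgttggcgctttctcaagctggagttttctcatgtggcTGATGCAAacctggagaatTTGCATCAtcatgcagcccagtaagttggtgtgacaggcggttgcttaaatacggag
Slc3a2 chr19:8713888-8714147: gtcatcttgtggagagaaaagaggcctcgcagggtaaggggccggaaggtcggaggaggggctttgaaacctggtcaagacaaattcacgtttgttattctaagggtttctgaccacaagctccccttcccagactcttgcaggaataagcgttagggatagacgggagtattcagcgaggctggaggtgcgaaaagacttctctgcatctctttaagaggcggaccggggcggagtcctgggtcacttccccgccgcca
Slc1a4 chr11:20332704-20332963: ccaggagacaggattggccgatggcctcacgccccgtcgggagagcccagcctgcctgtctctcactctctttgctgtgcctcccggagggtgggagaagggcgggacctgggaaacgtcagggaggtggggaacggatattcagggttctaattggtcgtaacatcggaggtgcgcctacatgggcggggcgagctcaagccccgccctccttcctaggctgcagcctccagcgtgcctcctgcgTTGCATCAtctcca
Slc7a11 carried 2 matches to TGATGNAA, both reading TGATGCAA, on opposite strands at positions -66 to -59 and -47 to -40, where 0 is the first transcribed base. Slc1a4 carried 1, TGATGCAA on the opposite strand at -4 to 3, and the Slc3a2 window held none of the 3 motifs. RefSeq windows of 300 bases were at hand for 6 of the 10 members, 9 windows in all. Of all 32851 promoter windows of that length, 3.97% held TGATGNAA, 7.15% CACGTG and 12.4% TGACNNNGC. Among members with a window, only Slc7a11 and Slc1a4 held TGATGNAA. The windows of Slc38a2 and Slc6a9, which also fell under MLN0128, held no TGATGNAA, nor did those of Slc7a1. No member window held CACGTG. TGACNNNGC was found in the window of Slc38a2, in 1 of the 2 windows of Slc7a1 and in 2 of the 3 windows of Slc6a9, and no match overlapped another. These matches describe letters and are not evidence of binding.

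Slc3a2 (chr19:8706882-8723369), the shared heavy chain, rose in tumors and fell with both drugs. It measured 11.1, 15.3 and 8.47 FPKM in normal liver, 62.5, 72.2 and 71.4 under vehicle, 24.1, 17.6 and 24.6 under MLN0128, and 36.6, 32.3 and 48.5 under everolimus. The 4 groups did not overlap and ran vehicle, everolimus, MLN0128, normal liver. By limma on log2(FPKM + 1), with Benjamini-Hochberg adjustment over all genes tested, vehicle tumors exceeded normal liver by 2.50 ± 0.21 (SE; adjusted p = 9.84e-07), 5.91-fold in mean FPKM. MLN0128 lowered it by a log2 difference of -1.61 ± 0.21 (adjusted p = 0.000396), and everolimus by -0.81 ± 0.21 (adjusted p = 0.0327). The everolimus call was lost when any vehicle replicate or everolimus replicate 1 or 2 was left out, with adjusted p of 0.0665 to 0.114. MLN0128 was below everolimus by -0.79 ± 0.21 (adjusted p = 0.0375), a call lost in 7 of the 12 fits with 1 library left out (normal liver replicate 1, vehicle replicates 1 and 3, MLN0128 replicates 1 and 2, everolimus replicates 1 and 3), with adjusted p of 0.0522 to 0.153.

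Slc7a5 (chr8:121881150-121907694), the LAT1 light chain that carries leucine and other large neutral amino acids, rose in tumors and fell under MLN0128. Normal livers held 1.08, 1.59 and 1.55 FPKM, vehicle tumors 46.8, 57.8 and 53.3, MLN0128 tumors 31.0, 18.9 and 26.9, and everolimus tumors 41.1, 35.8 and 57.7. Vehicle and everolimus overlapped, and each drug group lay wholly above normal liver. The tumor increase was 37.4-fold in mean FPKM, 4.48 ± 0.20 on the log2 scale (adjusted p = 1.16e-08). MLN0128 fell below vehicle by 1.03 on the log2 scale (SE 0.20, adjusted p = 0.00302), leaving 48.6% of the vehicle mean. With everolimus the log2 difference from vehicle was -0.25 ± 0.20 (adjusted p = 0.469), and MLN0128 lay below everolimus by -0.79 ± 0.20 (adjusted p = 0.0348). The last call was lost without vehicle replicate 3, MLN0128 replicate 1 or 2, or everolimus replicate 1 or 3, with adjusted p of 0.0505 to 0.141.

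Of the cationic transporters, Slc7a2 was the form of normal liver, and Slc7a1 and Slc7a3 rose in tumors. Slc7a2 (chr8:40862396-40922308), the hepatocyte CAT2, measured 151, 126 and 153 FPKM in normal liver, 46.4, 43.4 and 45.8 under vehicle, 42.5, 38.8 and 27.8 under MLN0128, and 32.3, 43.9 and 54.2 under everolimus. Normal liver lay above all tumors, and the tumor groups lay close together, those under MLN0128 just below vehicle and both overlapping everolimus. Vehicle tumors differed from normal liver by -1.64 ± 0.19 on the log2 scale (adjusted p = 1.42e-05), while neither drug group was called different from vehicle (-0.33 ± 0.19 under MLN0128, adjusted p = 0.217, and -0.09 ± 0.19 under everolimus, adjusted p = 0.827). Summed hepatocyte markers were lower in tumors over the same contrast, as given above, and their part in the fall of Slc7a2 was not tested.

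Slc7a1 (chr5:148327410-148399904), the widely expressed CAT1, measured 0.0563, 0.173 and 0.0582 FPKM in normal liver and 11.1, 14.5 and 14.8 in vehicle tumors. It was at 11.5, 6.16 and 10.2 under MLN0128 and at 11.8, 11.8 and 17.0 under everolimus, so that both drug groups overlapped vehicle. The tumor increase was 141-fold in mean FPKM, or 235-fold without normal liver replicate 2 (log2 difference 3.71 ± 0.21). Slc7a1 was under 0.5 FPKM in every normal liver and passed the filter of 0.5 FPKM in 3 libraries through the tumors. Its increase is therefore a description with no test. Neither drug group differed from vehicle past the thresholds: -0.52 ± 0.21 under MLN0128 (adjusted p = 0.0763) and 0.00 ± 0.21 under everolimus (adjusted p = 0.998). Without MLN0128 replicate 1, the MLN0128 value was -0.68 (adjusted p = 0.0486). Slc7a1 was thus the member least changed by either drug among those that rose in tumors, as measured by percent of the vehicle mean, 69.0% under MLN0128 and 100.5% under everolimus.

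Slc7a3 (chrX:101079210-101086020), the CAT3 form known mainly from brain, was listed at 0.0245, 0 and 0 FPKM in normal liver, a total of 1 recovered read. Vehicle tumors held 18.6, 32.6 and 17.0, MLN0128 tumors 3.19, 1.90 and 6.42, and everolimus tumors 14.1, 13.0 and 22.3. MLN0128 lay between normal liver and the other tumors without overlap, and everolimus overlapped vehicle. From pooled reads on the scale of the authors' FPKM, the ratio of vehicle to normal liver was 2748. Its 95% exact counting interval was 493 to 108558, which covers counting error only and not the spread between mice. Relative to vehicle, Slc7a3 changed by -2.35 ± 0.33 under MLN0128 (adjusted p = 0.000525) and by -0.42 ± 0.33 under everolimus (adjusted p = 0.443), and MLN0128 was below everolimus by -1.92 ± 0.33 (adjusted p = 0.00961). Slc7a3 is X-linked, and the MLN0128 libraries that hold Xist are the ones with the lowest values, 3.19 and 1.90. With MLN0128 replicate 3 alone, the difference from vehicle was -1.62 (adjusted p = 0.0211) and that from everolimus -1.20 (adjusted p = 0.121).

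Of the sodium-dependent carriers of small neutral amino acids, Slc1a4 and Slc1a5 rose in tumors. The direction of Slc38a2 and Slc6a9 in tumors depended on how libraries were scaled, as given below. Slc1a4 (chr11:20302180-20332713), or ASCT1, which carries alanine, serine and cysteine, measured 1.32, 3.23 and 1.00 FPKM in normal liver, 16, 13.9 and 18.8 under vehicle, 4.03, 2.59 and 3.58 under MLN0128, and 12, 10.2 and 16.1 under everolimus. Vehicle and everolimus overlapped, MLN0128 was below both, and MLN0128 overlapped normal liver. Slc1a4 rose by 2.67 ± 0.26 in tumors (adjusted p = 3.22e-06) and changed by -1.97 ± 0.26 under MLN0128 (adjusted p = 0.000433), to 20.9% of the vehicle mean. With everolimus the difference was -0.34 ± 0.26 (adjusted p = 0.444), and MLN0128 was below everolimus by -1.64 ± 0.26 (adjusted p = 0.00767).

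Slc1a5 (chr7:16781340-16798274), or ASCT2, a glutamine carrier, was the only member with a lower mean FPKM under everolimus than under MLN0128, an order that turned without everolimus replicate 1 or without MLN0128 replicate 1. It measured 0.267, 0.239 and 0.299 FPKM in normal liver, 7.30, 6.99 and 6.55 under vehicle, 4.21, 1.44 and 3.94 under MLN0128, and 1.45, 1.99 and 4.64 under everolimus. Both drug groups lay between normal liver and vehicle and overlapped each other. The increase in tumors was 25.9-fold in mean FPKM (2.65 ± 0.31). Slc1a5 was also under 0.5 FPKM in every normal liver and passed the filter through the tumors, so its increase is a description with no test. The difference from vehicle was -0.998 ± 0.311 under MLN0128 (adjusted p = 0.0293) and -1.20 ± 0.31 under everolimus (adjusted p = 0.0340), and that between the drugs was 0.20 ± 0.31 (adjusted p = 0.734). The MLN0128 call was lost without any 1 of the vehicle replicates or MLN0128 replicate 2, and the everolimus call without normal liver replicate 1, any 1 of the vehicle replicates, or everolimus replicate 1 or 2. Without MLN0128 replicates 1 and 2 the MLN0128 difference was -0.68 (adjusted p = 0.233), and without everolimus replicate 1 the everolimus difference was -0.95 (adjusted p = 0.138).

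Slc38a2 (chr15:96687392-96699730), or SNAT2, the amino acid-regulated carrier of alanine and glutamine, was highest in normal liver and lowest under MLN0128. Its FPKM was 39.6, 43.9 and 60.6 in normal liver, 22.0, 23.6 and 22.4 under vehicle, 13.2, 11.7 and 13.6 under MLN0128, and 20.2, 22.0 and 28.8 under everolimus. Only vehicle and everolimus overlapped. Vehicle tumors differed from normal liver by -1.03 ± 0.16 (adjusted p = 0.000159), MLN0128 from vehicle by -0.78 ± 0.16 (adjusted p = 0.00461), everolimus from vehicle by 0.04 ± 0.16 (adjusted p = 0.897), and MLN0128 from everolimus by -0.82 ± 0.16 (adjusted p = 0.0148). The last call was lost without MLN0128 replicate 1 (adjusted p = 0.0560) or everolimus replicate 3 (adjusted p = 0.0695). With MLN0128 replicate 3 alone, the difference from vehicle was -0.70 (adjusted p = 0.0922).

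Slc6a9 (chr4:117834506-117875198), the glycine transporter GLYT1, was lowered by MLN0128 to below the normal liver level. Values were 7.36, 8.87 and 4.57 FPKM in normal liver, 4.16, 5.34 and 4.02 under vehicle, 0.959, 0.529 and 0.829 under MLN0128, and 2.51, 3.80 and 5.15 under everolimus. The MLN0128 libraries lay below all 9 others, and the other 3 groups overlapped one another. Vehicle tumors differed from normal liver by -0.49 ± 0.23 (adjusted p = 0.0789), or by -0.73 without normal liver replicate 3 (adjusted p = 0.0141). MLN0128 differed from vehicle by -1.64 ± 0.23 (adjusted p = 0.000607), everolimus from vehicle by -0.22 ± 0.23 (adjusted p = 0.593), and MLN0128 from everolimus by -1.41 ± 0.23 (adjusted p = 0.00890).

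Set side by side, tumors differed from normal liver by higher light chains, heavy chain and ASCT carriers. A gene was called where its adjusted p was under 0.05 and its fold on the log2(FPKM + 1) scale above 1.5. Slc3a2, Slc7a5, Slc7a1, Slc7a3, Slc1a4 and Slc1a5, 6 of the 9 members, were called higher in vehicle tumors, where 27.1% of the 14395 tested genes were, and Slc7a2 and Slc38a2 were called lower, where 25.8% of tested genes were. Their median log2 difference was 2.65, and that of all tested genes 0.06. All 10 members passed the filter of 0.5 FPKM in 3 libraries, but Slc7a11, Slc7a1, Slc7a3 and Slc1a5 were under 0.5 FPKM in every normal liver. They passed through the tumors, so that the filter itself selected them for being higher in some tumors. Their calls and their part in the median are thus a description and not a test. Of the members called higher, Slc3a2, Slc7a5 and Slc1a4 did not pass in this way.

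For Slc38a2 and Slc6a9, the direction in tumors depended on how libraries were scaled. The deposited FPKM carried factors of 0.585 to 0.596 in normal liver and 1.10 to 1.37 in tumors beside the total reads. Scaled to plain library totals, the median of all tested genes between vehicle tumors and normal liver moved from 0.06 to 0.62, and scaled to equal FPKM sums (TPM) to 0.80, with 7367 genes higher and 1698 lower, and 8419 and 1399, in place of 3905 and 3707. Slc38a2 then differed by -0.12 and 0.13, or by -0.74 and -0.67 relative to that median, and Slc6a9 by 0.28 and 0.50, or by -0.34 and -0.30 relative to it. Slc7a2 stayed lower at -0.71 and -0.45, the second not called (adjusted p = 0.0538), or -1.34 and -1.25 relative to the median.

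**Figure D2:**
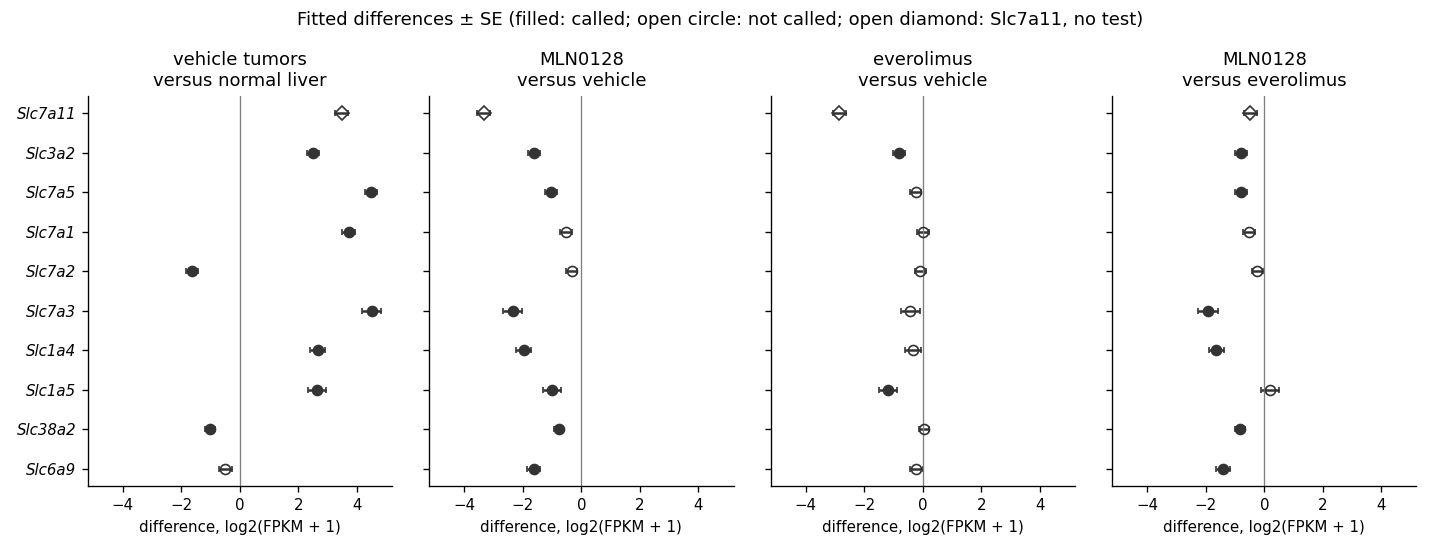
Difference in log2(FPKM + 1) ± SE (x axis) of each transporter in the 4 comparisons, 3 libraries per group; filled circles were called, open circles were not, and open diamonds are Slc7a11, for which no test is given. The MLN0128 versus vehicle values all lay below 0, from -3.33 to -0.33, whereas under everolimus only Slc3a2 and Slc1a5 were called.

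Most members were lower under MLN0128, Slc7a1 and Slc7a2 being the exceptions by the call used. Slc3a2, Slc7a5, Slc7a3, Slc1a4, Slc1a5, Slc38a2 and Slc6a9 were called lower than under vehicle, 7 of the 9 members, where 11.2% of tested genes were called lower. None of the 9 was called higher by limma, none was higher at an unadjusted p under 0.05 or by voom on recovered reads (0 in each), and 8.09% of tested genes were called higher. The median log2 difference of the 9 was -1.03, and that of all tested genes -0.01. With MLN0128 replicate 3 alone, assumed to vary like the other groups, Slc38a2 and Slc1a5 lost the call and no member reversed direction. Calls over all tested genes fell in that fit as well. Scaled to plain totals or to TPM, the split of all genes went from 1165 higher and 1609 lower to 1909 and 1202 or to 2485 and 984, and 6 or 5 members were called lower, with all differences below 0. Summed markers of cholangiocytes (Krt19, Krt7, Epcam, Sox9, Spp1, all above 0 in every library) were 36.8 to 92.5 FPKM under vehicle, 10.3 to 28.1 under MLN0128 and 17.2 to 61.8 under everolimus, and their part in these differences was not tested. Summed proliferation markers overlapped, at 51.5 to 65.6, 25.2 to 87.4 and 56.2 to 74.6 FPKM. Other marker sums overlapped between MLN0128 and vehicle. Medians under MLN0128 and vehicle were 2614 and 5715 for hepatocytes, and 69.1 and 107 for macrophages. They were 24.3 and 56.3 for erythroid cells and 11.5 and 14.0 for endothelial cells. Stellate cells (41.1 and 39.0), T and NK cells (0.855 and 0.576) and B cells (0.222 and 0.195) went the other way. The part of these was not tested.

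Everolimus lowered fewer members. Slc3a2 and Slc1a5, 2 of the 9, were called lower than under vehicle, where 4.69% of tested genes were called lower. No member was called higher by limma, at an unadjusted p under 0.05 or by voom (0 in each), where 2.02% of tested genes were called higher. The median log2 difference was -0.25, against 0.03 over all tested genes. The number called lower fell to 0 in 5 of the 12 fits with 1 library left out: without vehicle replicate 1, 2 or 3, or without everolimus replicate 1 or 2. Of all tested genes, 458, 758, 367, 371 and 801 were called lower in those fits, in that order.

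**Figure D3:**
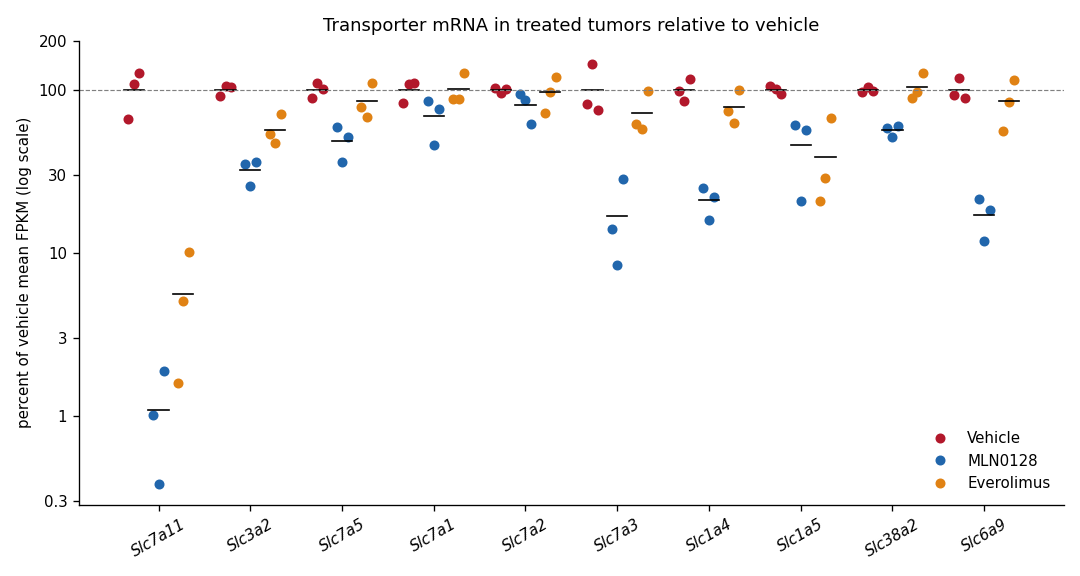
Level of each transporter in vehicle, MLN0128 and everolimus tumors as a percent of its vehicle mean FPKM (y axis, log scale); points are libraries and bars are means of 3. Slc7a11 stood at 1.09% under MLN0128 and 5.57% under everolimus, whereas Slc7a1 stood at 69.0% and 100.5%.

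The difference between the drugs was itself tested. Slc3a2, Slc7a5, Slc7a3, Slc1a4, Slc38a2 and Slc6a9, 6 of the 9 members, were called lower under MLN0128 than under everolimus, where 3.00% of tested genes were called lower, and 0 were called higher by limma, at an unadjusted p under 0.05 or by voom, where 2.30% of tested genes were. The median log2 difference was -0.79, against -0.03 over all tested genes. Slc1a4 remained at 20.9% of vehicle under MLN0128 and 78.6% under everolimus, Slc7a3 at 16.9% (11.2% without MLN0128 replicate 3) and 72.4%, and Slc6a9 at 17.1% and 84.8%. These calls changed with single libraries. With MLN0128 replicate 3 alone they did not hold, when Slc1a4 differed by -1.57 and Slc6a9 by -1.36, and calls over all tested genes fell too. Without MLN0128 replicate 1 or without everolimus replicate 3, 3 held. Of all tested genes, 103 and 94 were called lower in those fits, in place of 432. Both comparisons to vehicle use the same vehicle tumors.

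Members shared their extreme libraries within a drug group. Everolimus replicate 3 held the highest value of its group for 10 of 10 members, and MLN0128 replicate 2 the lowest for 9 of 10, the other being Slc7a2. Over all tested genes these libraries were highest and lowest of their groups for 32.2% and 33.6% of genes.

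Ratios within a library do not depend on how libraries are scaled, though their size depends on the exon lengths used. Slc7a5 per Slc3a2, in FPKM, was 0.0973, 0.104 and 0.183 in normal liver, 0.749, 0.801 and 0.746 under vehicle, 1.29, 1.07 and 1.09 under MLN0128, and 1.12, 1.11 and 1.19 under everolimus. Both drug groups thus lay above vehicle, and vehicle above normal liver, without overlap. Slc7a11 per Slc3a2 was 0.111, 0.158 and 0.186 under vehicle, 0.00440, 0.00230 and 0.00805 under MLN0128, and 0.00456, 0.0165 and 0.0219 under everolimus, so that Slc7a11 fell further than its heavy chain under both drugs. With 3 libraries against 3, an exact permutation test could not have passed 0.05, and none was run.

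Among the cationic transporters, Slc7a2 made up 99.95%, 99.86% and 99.96% of the summed FPKM of Slc7a1, Slc7a2 and Slc7a3 in normal liver and 48.0% to 61.0% in vehicle tumors. Slc7a3 took 21.9% to 36.0% of the sum under vehicle, 4.05% to 14.5% under MLN0128 and 18.9% to 24.2% under everolimus. The share of Slc7a1 changed less, at 14.6% to 19.1% under vehicle, 13.1% to 23.0% under MLN0128 and 17.2% to 20.3% under everolimus. Slc1a4 made up 66.5% to 74.2% of the sum of Slc1a4 and Slc1a5 under vehicle, 47.6% to 64.3% under MLN0128 and 77.6% to 89.2% under everolimus. These 3 ranges did not overlap, and normal liver, at 77.0% to 93.1%, overlapped everolimus.

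**Figure D4:**
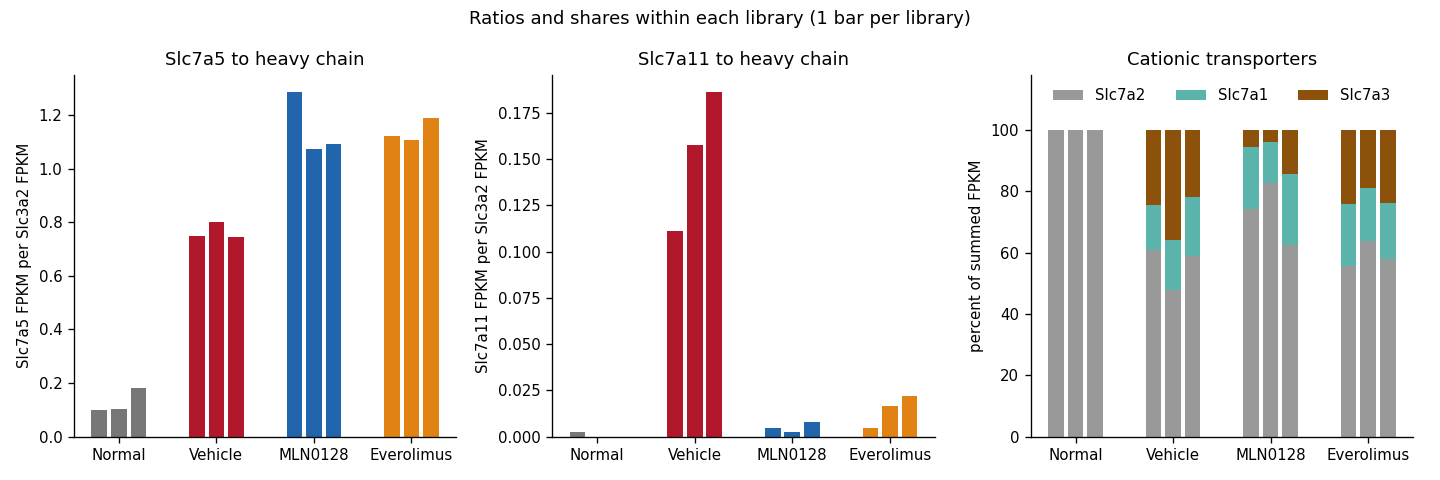
Within-library ratios of Slc7a5 and of Slc7a11 to the heavy chain Slc3a2 (FPKM per FPKM) and shares of Slc7a2, Slc7a1 and Slc7a3 in their summed FPKM (percent), 1 bar per library. Slc7a5 per Slc3a2 was 0.746 to 0.801 under vehicle and 1.07 to 1.29 with either drug, and Slc7a2 was 48.0% to 61.0% of the cationic sum under vehicle.

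Other amino acid transporters gave a mixed picture. Of 33 listed, 20 were measured and 17 passed the filter. In vehicle tumors 9 were called higher and 4 lower (median log2 difference 0.82), where 27.1% and 25.8% of all tested genes were. Of the 9, Slc6a19, Slc38a1, Slc7a9 and Slc7a6 were under 0.5 FPKM in every normal liver. They passed the filter through the tumors, so that it selected them for being higher in some tumors. Slc36a2 passed in the same way and was not called higher. Slc38a3, a hepatocyte glutamine carrier, held 348 to 358 FPKM in normal liver and 43.4 to 48.2 in vehicle tumors (log2 difference -2.95 ± 0.22, adjusted p = 3.76e-07). Slc38a4, a hepatocyte carrier of alanine and other neutral amino acids, held 518 to 653 and 101 to 114 FPKM (-2.43 ± 0.19, adjusted p = 5.30e-07). The glutamate carrier Slc1a2, which marks perivenous hepatocytes, held 13.2 to 15.6 FPKM in normal liver and at most 0.183 in vehicle tumors. Slc7a6, another light chain of Slc3a2, rose from at most 0.101 FPKM to between 7.82 and 11.3. Slc7a9, the light chain that pairs with Slc3a1, rose from at most 0.0693 to between 3.45 and 4.24, and Slc6a19, a neutral amino acid carrier listed at 0 in all normal livers, stood at 1.34 to 4.55.

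Under MLN0128, 5 of the 17 were called lower and 0 higher (1 was higher at an unadjusted p under 0.05 and 1 by voom), where 11.2% and 8.09% of all tested genes were, with a median log2 difference of -0.04. They were Slc38a1, another glutamine carrier, which changed by -1.44 ± 0.10 (adjusted p = 1.05e-05), Slc6a19, Slc7a8, the taurine carrier Slc6a6 and Slc43a2. Under everolimus 4 were called lower and 1 higher (median -0.10), where 4.69% and 2.02% of all tested genes were. Slc38a1 changed by -1.44 ± 0.10 (adjusted p = 2.00e-05) and Slc6a19 by -1.48 ± 0.24 (adjusted p = 0.00431), Slc7a9 and Slc43a2 were also lower, and Slc7a6 was higher at 12.6 to 15.2 FPKM (0.60 ± 0.16, adjusted p = 0.0350). Slc38a1, at 1.98 to 2.32 FPKM under vehicle, was at most 0.291 under MLN0128 and 0.245 under everolimus. Between the drugs, Slc7a9 was called higher under MLN0128 (0.96 ± 0.20, adjusted p = 0.0187) and Slc6a6 lower (-0.59 ± 0.12, adjusted p = 0.0168), 1 each way (median -0.02), where 2.30% of all tested genes were called higher and 3.00% lower. Without MLN0128 replicates 1 and 2, Slc7a8 and Slc43a2 lost the call against vehicle, and Slc7a9 and Slc6a6 that between the drugs.

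A list of 22 genes of the amino acid response, all tested, was followed beside the transporters. In vehicle tumors 18 were called higher and 1 lower, where 27.1% and 25.8% of all tested genes were, with a median log2 difference of 2.38. Stc2 and Pycr1, 2 of the 18, were under 0.5 FPKM in every normal liver and passed the filter through the tumors. Phgdh, the first enzyme of serine synthesis, held 0.298 to 4.78 FPKM in normal liver and 197 to 269 in vehicle tumors. Psat1, the next enzyme, held 0.428 to 9.78 and 195 to 218 FPKM, and the proline synthesis enzyme Aldh18a1 and the stress-induced mTORC1 inhibitor Ddit4 also rose. MLN0128 lowered 16 and raised 0 by limma (0 at an unadjusted p under 0.05 and 0 by voom), against 11.2% and 8.09% of all tested genes, with a median of -1.75. The largest falls were of Chac1, which degrades glutathione, at 20.8 to 32.5 FPKM under vehicle and 0.287 to 0.710 under MLN0128 (-4.23 ± 0.22, adjusted p = 1.99e-06), and of Nupr1, Trib3 and the mitochondrial folate enzyme Mthfd2.

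Atf4 itself measured 61.7, 68.4 and 49.3 FPKM in normal liver, 148, 168 and 130 under vehicle, 33.8, 35.6 and 30 under MLN0128, and 96.9, 86.3 and 141 under everolimus. MLN0128 lay below all other groups, and everolimus overlapped vehicle. Atf4 mRNA rose by 1.30 ± 0.19 in tumors (adjusted p = 7.12e-05) and changed by -2.13 ± 0.19 under MLN0128 (adjusted p = 5.41e-05) and -0.48 ± 0.19 under everolimus (adjusted p = 0.127). Everolimus lowered Nupr1 (-2.69 ± 0.53, adjusted p = 0.0103) and Ddit3 and raised the proline synthesis gene Pycr1, 2 lower and 1 higher of the 22 (median -0.47), against 4.69% and 2.02% of all tested genes. MLN0128 was called below everolimus for 13 and above it for 0 by limma (0 at an unadjusted p under 0.05 and 0 by voom), against 3.00% and 2.30% of all tested genes, with a median of -1.29. Chac1, Mthfd2, Trib3 and Fgf21 differed most, from -3.55 for Chac1 to -2.38 for Fgf21, and without MLN0128 replicates 1 and 2 Chac1 and Atf4 kept this call and Mthfd2, Trib3 and Fgf21 lost it. Whether the transporters moved because of Atf4 was not tested.

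Tested genes were ranked by likeness to Slc7a11, as the root mean square difference of log2(FPKM + 1) over the 12 libraries, each gene centred on its own mean. The 5 nearest were Ptgr1 (0.33), Muc13 (0.41), Mdk (0.43), Pak1 (0.44) and Acp7 (0.46), where the median of tested genes was 1.49. Like Slc7a11, each was higher under vehicle than in any other group: Ptgr1 was at 35.9 to 61.8 FPKM under vehicle and at 2.82 to 4.81 in the other 9 libraries, and Muc13 at 7.48 to 17.6 and at most 0.391. Among the members, Slc3a2 came closest, in place 97 of the tested genes at 0.83, followed by Slc1a5 at 0.93 and Slc1a4 at 0.98, and Slc7a2 was farthest at 1.84. The ranking describes these libraries and carries no test.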

How the data were processed

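RNA of 3 normal livers and 9 tumors was sequenced by the authors, who deposited FPKM per gene symbol, rounded to 3 significant digits. The labels' processing notes name GRCm38 and FastQC 0.11.7; the aligner is not given in the sources used here. Of 17007 symbols, 22 had become dates, and repeated ones were left out. FPKM times GENCODE M21 exon length gave whole reads (within 0.1) for 98.2% to 98.8% of values under 20 reads, so reads per library could be recovered.

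Values were taken as log2(FPKM + 1). The 14395 genes that reached 0.5 FPKM in 3 or more of the 12 libraries were fitted in 1 model with 4 groups by limma 3.58.1 in R 4.3.3 (moderated test, intensity trend, 8 residual degrees of freedom) and adjusted by Benjamini-Hochberg. The fit was tested on simulated data. p-values rest on 1 spread per gene, pooled over the 3 mice of each of the 4 groups and moderated across genes. They do not measure the spread of only the 2 groups compared. All 10 members were named with all their values; of the other transporters up to 6 and of the amino acid response list Atf4 and up to 4 per comparison were named, those with the largest differences among the called; likeness gave 5 genes. Members and lists were chosen with earlier results of these data known. Other steps used pandas 2.3.3 and matplotlib 3.10.9. Alternatives covered pseudocount, filter, scaling, test, prior, libraries in the fit, replicate block and each library left out.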

Additional observations from a re-analysis of the deposited data

How the results depend on the processing

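The 6 members called higher in vehicle tumors stayed 6 in all 12 fits with 1 library left out. Among them, Slc7a1, Slc7a3 and Slc1a5 passed the filter through the tumors. Those called lower, 2, ran from 2 to 3 over the same fits. Of all 14395 tested genes, these fits called 3745 to 3918 higher and 3588 to 3721 lower. The number of members lower was 0 under library sums (TPM), 1 under plain library totals and 1 under quantile normalization. Of all tested genes, 1399, 1698 and 3516 were called lower in those fits. For MLN0128 versus vehicle, 7 members lower became 6 under plain totals, 5 under TPM, 4 when limma's treat test set the bar at a fold of 1.5 and 6 to 8 with 1 library left out. Of all tested genes, 1609 were called lower, and 1202, 984, 237 and 1300 to 1771 in those fits. For everolimus versus vehicle, 2 became 1 at a pseudocount of 0.1 FPKM, 0 under TPM, 0 by treat, 1 when only those groups were fitted, and 0 to 2 with 1 library left out. Of all tested genes, 675 were called lower here, and 699, 562, 82, 504 and 367 to 801 in those fits. For MLN0128 versus everolimus, 6 became 3 under TPM, 0 by treat, 0 when only those groups were fitted, and 3 to 6 with 1 library left out. With MLN0128 replicate 3 alone these calls did not hold. Calls over all tested genes fell as well between the drugs. There, 432 were called lower, and 172 under TPM, 5 by treat and 5 when only those groups were fitted. With 1 library left out, 94 to 623 were. The treat test asks for more than a fold of 1.5, and fits of fewer libraries rest on fewer samples. Other causes were not tested.

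Direction reversed as follows. Between vehicle tumors and normal liver, Slc38a2 was 0.13 under TPM, and Slc6a9 was 0.50 under TPM and 0.28 under plain totals. Between everolimus and vehicle, where no call was made, Slc7a1 was 0.0055 under plain totals and -0.17 to 0.080 with 1 library left out, Slc7a2 -0.26 to 0.11 and Slc38a2 -0.10 to 0.15. Between the drugs, Slc7a2 was 0.0036 under TPM and Slc1a5 -0.047 to 0.55 with 1 library left out. Slc7a11 kept its direction in all alternatives, and its log2 difference ran from 3.30 to 10.5 for tumors versus normal liver, -6.68 to -3.16 for MLN0128, and -4.37 to -2.66 for everolimus versus vehicle, widest by voom, which adds less to low values.

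Replicate numbers in the labels did not pair the samples: deviations of same-numbered libraries correlated from -0.29 to 0.15 (median -0.06, 18 pairs). With the replicate block, 6 members were higher and 2 lower in tumors, 7 lower with MLN0128, 1 lower with everolimus and 4 lower between the drugs. The counts over all tested genes were 3891, 3699, 1570, 565 and 324, in that order. Near 0 FPKM, depth limits Slc7a11 and Slc7a3 in normal liver. In normal liver replicate 1, 4 reads of Slc7a11, with 13922 exon bases, came to 0.0266 FPKM. There, 1 read of Slc7a3, with 3784 exon bases, came to 0.0245. For a shorter gene of 2 kb, 3 reads come to 0.136 to 0.144 FPKM in normal liver.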
